A study of Mus musculus with 6 samples.

Results

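The proneural and neuronal differentiation bHLH factors described here are 10 genes, Neurod1, Neurod2, Neurod4, Neurod6, Neurog2, Neurog3, Atoh1, Atoh8, Nhlh1 and Nhlh2, of 22180 genes measured. They were chosen by name, with earlier results of these data known. Each is represented by the brightest probe set that carries its symbol alone, by the mean over 6 arrays. Each of the 10 had 1 such probe set. The cells are KP1, a cell line of mouse small cell lung cancer (SCLC) whose tumor came from a mouse lacking Rb, p53 and p130, so both groups share these deletions. One group received a plasmid for the intracellular domain of Notch1 with GFP on the same transcript (N1ICD, 3 arrays), and the other the vector with GFP alone (control, 3 arrays). GFP-positive cells were sorted 48 hours after transfection, and total RNA was hybridized to Affymetrix Mouse Gene 2.0 ST arrays. All samples come from 1 cell line, the transgene is delivered from outside, and the labels call the 3 samples of a group biological replicates without naming separate cultures. The p-values below therefore measure the spread between these samples.

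Proneural bHLH factors are transcription factors with a basic DNA-binding region and a helix-loop-helix that pairs them with an E protein, and the pair binds E boxes in neural genes. Determination factors such as the neurogenins act early in progenitors, and NeuroD and Nhlh factors act later in differentiating neurons and endocrine cells. In lateral inhibition, Notch activity raises HES and HEY repressors, which hold proneural genes down. The neighboring cell keeps its proneural factors, which raise the Notch ligand Dll1 in that same cell. In small cell lung cancer, factors of this class mark neuroendocrine tumor states. N1ICD against control asks how the class stands when Notch1 is made active in such cells.

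Promoter sequences are shown for 4 members: Atoh8 and Neurod4, which fell in N1ICD, and Neurog2 and Neurod1, which did not pass the test. The windows are RefSeq's on GRCm38.p6, from 250 bases before to 50 after the annotated start, 5′ to 3′ on the gene's strand. They lie at chr6:72235528-72235827 on the minus strand for Atoh8, at chr10:130280205-130280504 on the minus strand for Neurod4, at chr3:127632886-127633185 on the plus strand for Neurog2 and at chr2:79456587-79456886 on the minus strand for Neurod1. Capitals mark letters of 3 motifs read on both strands, the class C site CACGNG and the N box CACNAG, which HES and HEY proteins are known to bind, and the RBPJ core TGGGAA. The class C pattern takes in the class B site CACGTG, and CACGAG matches both the class C site and the N box.
Atoh8: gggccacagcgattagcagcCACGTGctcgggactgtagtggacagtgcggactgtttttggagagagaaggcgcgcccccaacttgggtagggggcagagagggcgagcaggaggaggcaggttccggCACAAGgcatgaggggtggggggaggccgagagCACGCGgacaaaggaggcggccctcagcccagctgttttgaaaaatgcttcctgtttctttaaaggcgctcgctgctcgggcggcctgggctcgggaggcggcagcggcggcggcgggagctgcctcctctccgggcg
Neurod4: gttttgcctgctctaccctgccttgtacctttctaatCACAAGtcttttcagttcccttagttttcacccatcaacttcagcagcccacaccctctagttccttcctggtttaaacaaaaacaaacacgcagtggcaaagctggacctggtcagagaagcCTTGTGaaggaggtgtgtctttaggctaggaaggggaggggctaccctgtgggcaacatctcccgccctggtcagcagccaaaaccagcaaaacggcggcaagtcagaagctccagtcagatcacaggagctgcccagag
Neurog2: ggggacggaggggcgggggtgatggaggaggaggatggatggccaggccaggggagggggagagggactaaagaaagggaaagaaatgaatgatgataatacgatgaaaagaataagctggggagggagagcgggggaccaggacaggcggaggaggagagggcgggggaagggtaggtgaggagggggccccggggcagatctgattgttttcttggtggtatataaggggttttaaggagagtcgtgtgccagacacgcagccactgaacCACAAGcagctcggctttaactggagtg
Neurod1: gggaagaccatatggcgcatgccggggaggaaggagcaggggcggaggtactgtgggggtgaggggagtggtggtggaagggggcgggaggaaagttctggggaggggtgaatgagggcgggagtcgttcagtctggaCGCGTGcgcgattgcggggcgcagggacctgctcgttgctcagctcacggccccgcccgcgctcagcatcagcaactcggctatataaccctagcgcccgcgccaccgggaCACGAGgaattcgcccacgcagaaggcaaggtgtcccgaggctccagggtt

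All 10 members had a promoter window, and Neurod4 had a second, overlapping one. The Atoh8 window held a CACGTG 230 bases before the start, a CACAAG at 121 bases and a CACGCG at 88 bases. The Neurod4 window held an N box at 213 and another at 90 bases before the start and no class C site. The Neurog2 window held 1 N box, starting at base 23 after the start, and Neurod1 a class C site 112 bases before it and a CACGAG across it. Over all members, 6 held a class C site, 7 an N box and 2, Nhlh1 and Nhlh2, an RBPJ core. Of the 32851 windows in the table, 27.5% held a class C site, 42.5% an N box, 25.6% an RBPJ core and 7.15% a CACGTG. Changed and unchanged members both carried these letters, a match is not a bound site, and no binding was measured.

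The levels are log2 values after RMA, the authors' background correction, normalization and summary of each probe set. No detection call came with them, so an empirical floor was taken from 1434 olfactory, vomeronasal and taste receptor genes, for which little RNA is expected in a lung tumor line. The 95th percentile of their 6-array means, 5.53, is called the floor. Their median was 3.30, and the median of all genes was 6.20. Of all genes, 39.8% had a 6-array mean at or under the floor. The floor is a proxy: probe sets differ in their affinity, so a member's distance from it does not rank transcript amounts between genes.

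Of the 10 members, 4 were near the floor, with both group means at or under it: Neurod6, Atoh1, Nhlh1 and Nhlh2. The count depends on where the floor is set: 3 members were near it at the 90th percentile of the receptor genes and 8, all but Atoh8 and Neurod4, at the 99th. Neurod1 and Neurog3 straddled it, with the N1ICD mean under and the control mean above. Neurod2 lay just above it in both groups, by 0.15 in N1ICD and 0.24 in control cells on the log2 scale. Neurog2 stood 0.97 above it in both groups. Atoh8 and Neurod4 stood clear of it, by 1.53 and 1.97 in N1ICD cells and by 3.09 and 3.00 in control cells.

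**Figure D1:**
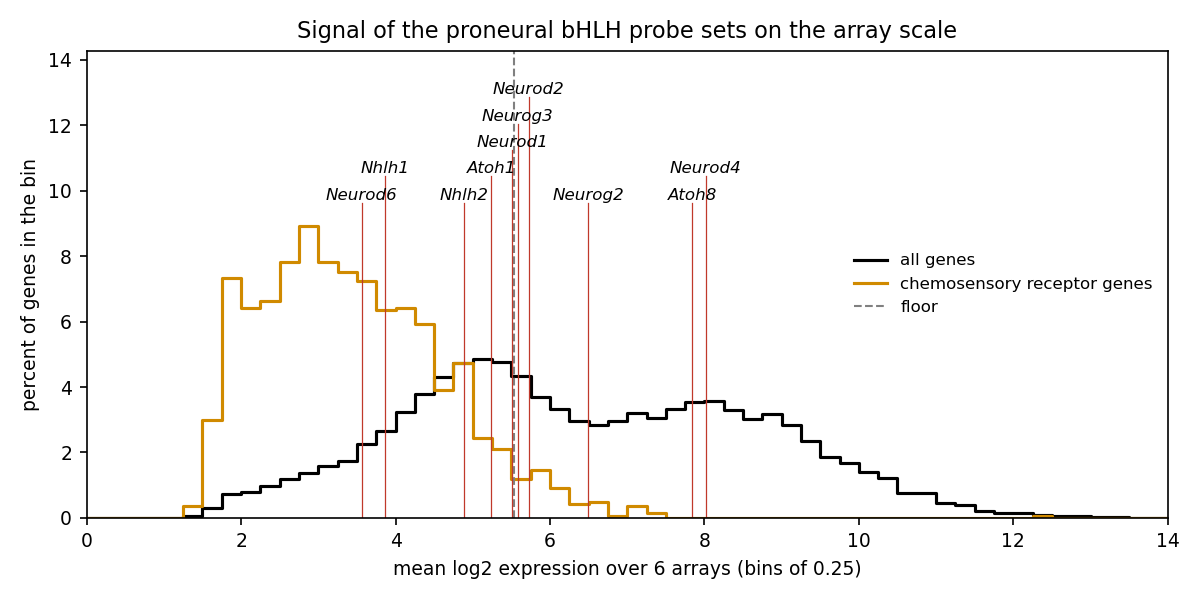
Share of genes (percent per bin of 0.25) by mean log2 expression over 6 arrays, for all 22180 genes (black) and 1434 chemosensory receptor genes (orange), with the 10 proneural bHLH members as red lines. Atoh8 and Neurod4 lie beyond nearly all receptor genes, while Neurod6, Nhlh1, Nhlh2, Atoh1 and, by a small margin, Neurod1 lie left of the floor of 5.53 (dashed).

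In N1ICD cells 2 of the 10 members fell, Atoh8 and Neurod4, 0 rose and 8 did not pass the test (limma, Benjamini-Hochberg adjusted p under 0.05 over all genes). Of all genes 7.1% passed, 3.82% higher and 3.27% lower in N1ICD. The median log2 difference of the members was -0.09, against -0.02 for all genes. The 2 that fell were the members farthest above the floor. Of the 12997 genes with both group means above it, 10.2% changed and 5.06% fell, and of the 8527 genes at or under it in both groups, 1.02% changed. In 2 of 10 members, the same 2, the groups did not overlap. Of all genes 26.1% had groups that did not overlap, 15% with N1ICD lower.

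Atoh8, an atonal-family factor that is also known outside the nervous system, had 7.17, 6.90 and 7.11 in the N1ICD arrays, against 8.66, 8.65 and 8.55 in the control arrays (log2 expression). The 3 N1ICD arrays all lay below the 3 control arrays, by more than 1 log2 unit. Its mean was 7.06 ± 0.14 in N1ICD and 8.62 ± 0.06 in control cells (SD, n = 3 each). The log2 difference was -1.56 ± 0.11 SE, a 2.95-fold lower signal (95% interval of the difference -1.81 to -1.32, limma adjusted p = 8.47e-05). Only 8 of the 22180 genes had a larger fall. Its difference stayed between -1.62 and -1.48 with any 1 array left out (adjusted p up to 0.00103).

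Neurod4, which acts in neuronal differentiation in the brain and retina, had 7.79, 7.26 and 7.44 in the N1ICD arrays, against 8.71, 8.42 and 8.46 in the control arrays. The groups again did not overlap, and the highest N1ICD value was that of replicate 1. The mean was 7.50 ± 0.27 in N1ICD and 8.53 ± 0.16 in control cells (SD, n = 3 each). The log2 difference was -1.04 ± 0.15 SE, or 2.05-fold lower (95% interval -1.39 to -0.69, limma adjusted p = 0.00538). It ranked 89th among all genes ordered from the largest fall. With 1 array left out it lay between -1.18 and -0.92, and the highest adjusted p was 0.0278, without N1ICD replicate 3. Both genes kept a clear signal in N1ICD cells: every N1ICD array was above the floor for Atoh8 and for Neurod4. The exact two-sided permutation p was 0.1 for each, the smallest that 3 against 3 arrays allow.

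**Figure D2:**
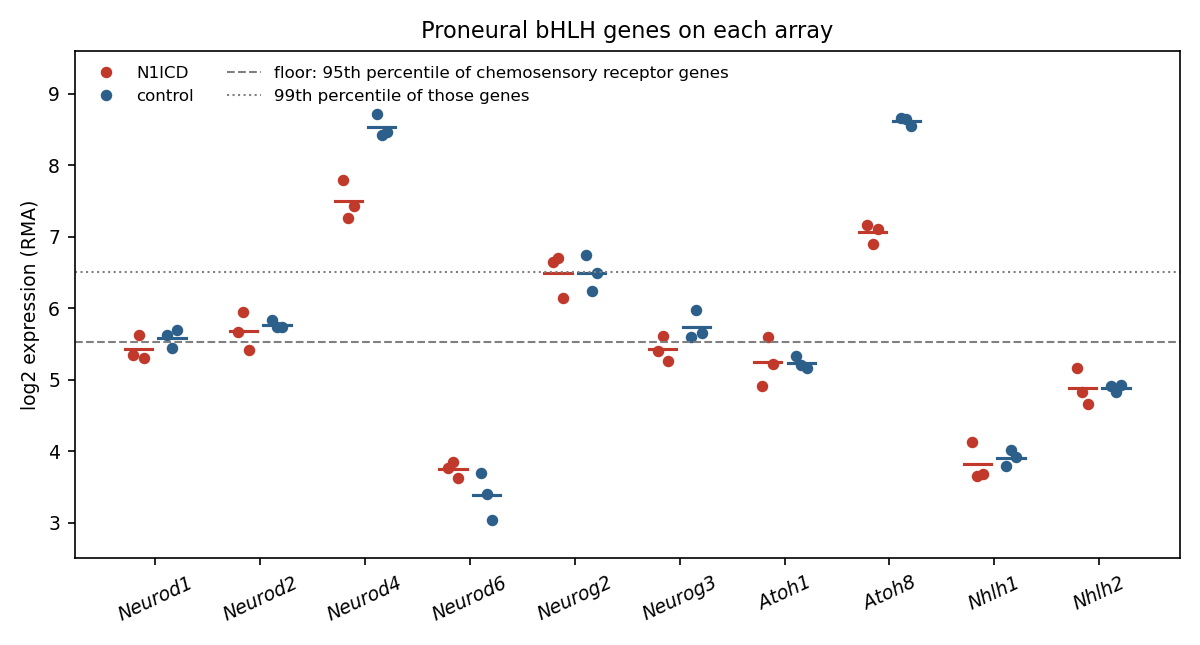
Log2 expression of each proneural bHLH member on each array, N1ICD in red and control in blue, with group means as bars. The N1ICD points of Atoh8 and Neurod4 lie below their control points, at 6.90 to 7.17 and 7.26 to 7.79, and the groups overlap for the other 8 genes; dashed and dotted lines are the 95th and 99th percentiles of chemosensory receptor genes, 5.53 and 6.51.

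Neurod1, which drives neuroendocrine and neuronal differentiation and marks one state of small cell lung cancer, had 5.35, 5.63 and 5.30 in N1ICD, against 5.62, 5.44 and 5.70 in control arrays. The groups overlapped, and 1 N1ICD array and 2 control arrays were above the floor. The log2 difference was -0.16 ± 0.12 SE (95% interval -0.44 to 0.12, limma adjusted p = 0.545). A further probe set is annotated to both Neurod1 and Cerkl and was not read as either gene. It had 6.45, 6.63 and 6.94 in N1ICD, against 7.08, 7.19 and 7.60 in control arrays. Its groups did not overlap, and its log2 difference of -0.62 ± 0.19 SE did not pass the test over all probe sets (limma adjusted p = 0.2). The means of that probe set, 6.67 in N1ICD and 7.29 in control arrays, lay above the floor. Which of these probe sets covers the coding part of Neurod1 was not settled here, so the level of Neurod1 and its place at the floor hold for the single-symbol probe set only.

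The other NeuroD factors are known from differentiating forebrain neurons. Neurod2 had 5.67, 5.95 and 5.42 in N1ICD, against 5.83, 5.73 and 5.74 in control arrays, a log2 difference of -0.09 ± 0.14 SE. The control values lay within the range of the N1ICD values. Neurod6 had 3.76, 3.86 and 3.62 in N1ICD, against 3.69, 3.41 and 3.04 in control arrays. Its log2 difference of 0.36 ± 0.16 SE was the highest of the class and did not pass the test (95% interval -0.01 to 0.74, limma adjusted p = 0.272). All 6 values lay under the floor, and 57.9% of the chemosensory receptor genes had a lower mean.

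Of the neurogenins, Neurog2 specifies cortical and sensory neurons, and Neurog3 specifies endocrine cells of the pancreas and gut. Neurog2 had 6.64, 6.70 and 6.14 in N1ICD, against 6.75, 6.25 and 6.50 in control arrays. Its group means were equal to 2 decimals, 6.50 and 6.50, with an interval of the log2 difference of -0.42 to 0.42. Neurog3 had 5.40, 5.62 and 5.26 in N1ICD, against 5.59, 5.97 and 5.65 in control arrays. Only N1ICD replicate 2 reached into the control range, above control replicate 1. The log2 difference of -0.31 ± 0.14 SE did not pass the test (95% interval -0.63 to 0.01, limma adjusted p = 0.264).

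Atoh1, which makes cerebellar granule cells, hair cells and secretory cells of the gut, had 4.92, 5.59 and 5.22 in N1ICD, against 5.33, 5.21 and 5.17 in control arrays. The N1ICD values spread on both sides of the control values, and only N1ICD replicate 2 was above the floor. The log2 difference was 0.01 ± 0.17 SE, and its sign turned under 3 other normalizations. Nhlh1 and Nhlh2 are expressed in newly formed neurons. Nhlh1 had 4.12, 3.66 and 3.68 in N1ICD, against 3.79, 4.01 and 3.91 in control arrays (log2 difference -0.09 ± 0.14 SE). Nhlh2 had 5.16, 4.83 and 4.67 in N1ICD, against 4.91, 4.83 and 4.92 in control arrays (-0.00 ± 0.13 SE). In both, the groups overlapped and every array lay under the floor.

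**Figure D3:**
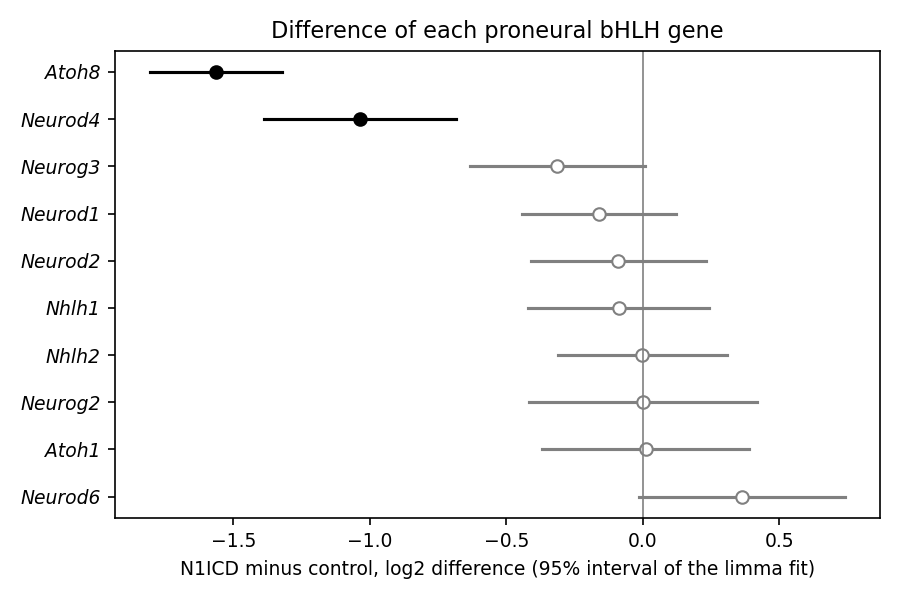
Log2 difference, N1ICD minus control, of each proneural bHLH member with the 95% interval of the limma fit, filled black where the adjusted p was under 0.05. The intervals of Atoh8 (-1.81 to -1.32) and Neurod4 (-1.39 to -0.69) lie left of 0, and the other 8 intervals include 0.

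The intervals bound what the 8 members without a call can hide on this scale. They ran from -0.63 (Neurog3) to 0.74 (Neurod6). For members near the floor this bounds the difference in signal, and RMA compresses differences there, so a change in RNA is not bounded in the same way. Across arrays, N1ICD replicate 3 gave the lowest value for 5 of the 10 members and N1ICD replicate 2 for 3, among them Atoh8 and Neurod4. N1ICD replicate 2 was also the highest array for 3 members, Neurod2, Neurod6 and Atoh1.

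The genes whose array pattern was nearest to Atoh8 and Neurod4 were found by the root mean square difference of gene-centered log2 values over the 6 arrays. Nearest to Atoh8 were Fst (0.076), a secreted activin-binding protein, Dll3 (0.14), a Notch ligand, Hes6 (0.14), a HES family member known to promote neurogenesis, and Gm572 (0.14). Their log2 differences between N1ICD and control were -1.51, -1.43, -1.48 and -1.30. Nearest to Neurod4, for which the search was added after its values were seen, were Lfng (0.052), a glycosyltransferase that modifies Notch receptors, Rgs2 (0.086), a regulator of G protein signaling, Best3 (0.10), a bestrophin channel protein, and Cxcr4 (0.11), a chemokine receptor. Their log2 differences were -1.04, -0.96, -1.02 and -0.99. Rgs2 had a second probe set with a log2 difference of -0.43. The measure includes the group difference and rests on 6 arrays of 2 groups.

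Among 11 repressors of the HES and HEY kind, which act on proneural genes, 5 rose and 0 fell. By comparison, 3.82% of all genes rose and 3.27% fell. This and the following gene lists were drawn up with earlier results of these data known, so their counts are not independent tests. The list of 11 takes in the relatives Helt, Bhlhe40 and Bhlhe41 and leaves out Hes6, which fell and is counted with the proneural targets. The median log2 difference of the 11 was 0.44. The largest were Hes5 (5.11 ± 0.15 SE at the brighter of its probe sets, 0.72 at the other), Hey1 (4.42 ± 0.12), Hes1 (3.46 ± 0.11) and Hey2 (2.20 ± 0.10). Of the 7 dimerization partners and antagonists, the 3 E proteins Tcf3, Tcf4 and Tcf12 did not pass the test. Their log2 differences were -0.20, 0.04 and -0.05. Of the 4 ID proteins, which sequester E proteins, 3 rose: Id4 (1.61 ± 0.20), Id3 (0.91 ± 0.13) and Id1 (0.47 ± 0.10). The call of Id1 was lost without any 1 of the 6 arrays (limma adjusted p 0.0578 to 0.0795).

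Among 35 other class II bHLH factors, which share the fold and the E protein partner, 2 fell and 1 rose, with a median log2 difference of 0.04. These calls stand near the share over all genes, 7.1%. Scx, a tendon factor, fell by 1.62 ± 0.17 on the log2 scale, close in size to Atoh8. Ascl4 (-0.40 ± 0.09) fell and Ascl3 (0.72 ± 0.09) rose, both at or near the floor. The call of Ascl4 was lost without any 1 array (limma adjusted p 0.0597 to 0.133). Neurog1 (0.11 ± 0.11) and Atoh7 (0.10 ± 0.11), the nearest relatives of the members measured, did not pass the test. Neurog1 lay under the floor in both groups, and Atoh7 lay above it in both. Of these 35 genes 14 lay above the floor in both groups, and 1 of the 14, Scx, changed. Among all genes above it in both groups, 10.2% changed.

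A list of 40 genes known as targets of proneural factors holds 3 of the members. Of the other 37, 14 fell, 3 rose and 20 did not pass the test, with a median log2 difference of -0.17. Over all genes 3.27% fell and 3.82% rose. The list was drawn up with earlier results of these data known and holds Notch ligands, so this contrast is not an independent test. Dll1, the ligand of lateral inhibition, fell by 1.63 ± 0.19 on the log2 scale (-0.27 at its second probe set). Hes6 fell by 1.48 ± 0.14 and St18, a zinc finger factor, by 1.44 ± 0.22. Ebf1, a factor of neuronal and B cell differentiation, rose by 1.55 ± 0.36, a call lost without N1ICD replicates 2 or 3 or control replicates 1 or 2 (limma adjusted p up to 0.121, without N1ICD replicate 2). The other targets that rose, Gadd45g (1.15 ± 0.11) and Lmo4 (1.12 ± 0.09), kept their calls with any 1 array left out. All 14 that fell lay above the floor in both groups, as did 28 of the 37. Among all genes above it in both groups, 5.06% fell. With 1 array left out, 13 to 15 of the 40 fell and 2 or 3 rose.

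**Figure D4:**
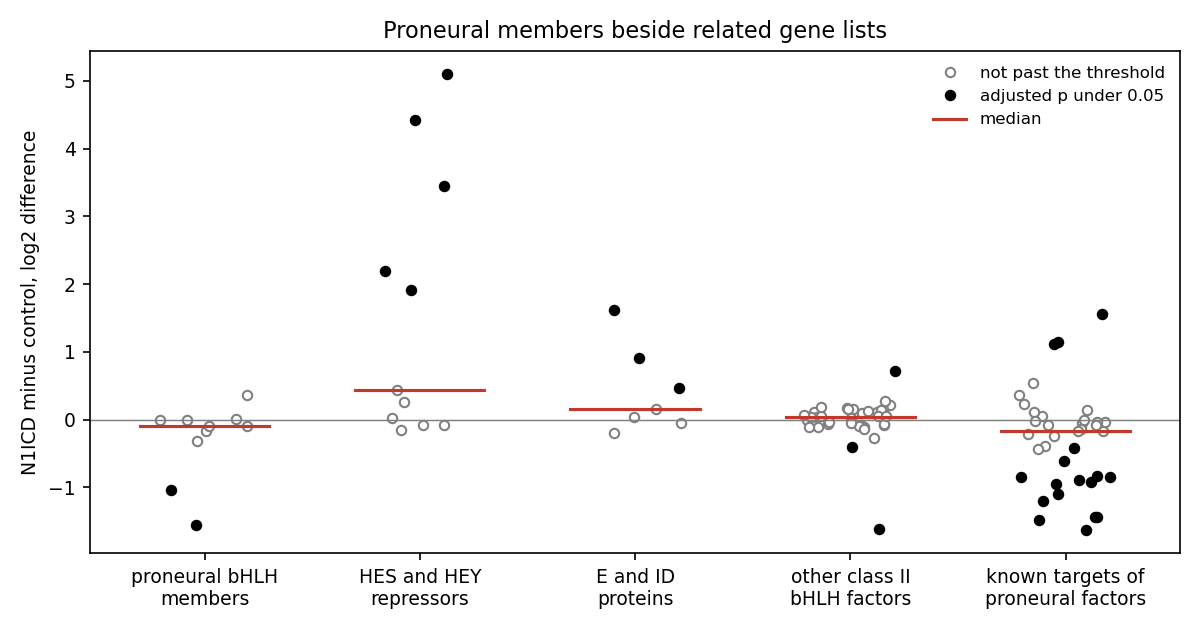
Log2 difference, N1ICD minus control, of the 10 proneural bHLH members and 4 related lists (the targets without the members), filled where the adjusted p was under 0.05, with list medians in red. Medians are -0.09 for the members, 0.44 for HES and HEY, 0.16 for E and ID proteins, 0.04 for other class II factors and -0.17 for targets.

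The labels were checked against marker genes. Notch1, the transfected gene, had 8.07, 7.49 and 7.72 in N1ICD, against 6.35, 6.20 and 5.96 in control arrays, and its probe set need not cover the insert alone. Rb1 read 10.4 to 10.6 and Rbl2, which encodes p130, 8.77 to 9.09 over the 6 arrays. These probe sets may lie outside the deleted exons, and their values do not test the deletions. All 11 neuroendocrine markers, such as Chga and Syp, lay above the floor in both groups. In N1ICD 2 of them rose, Chga (log2 difference 0.64 ± 0.12 SE) and Ncam1 (0.53 ± 0.11), and 1 fell, Insm1 (-0.89 ± 0.15). The other 8 did not pass the test. Of all genes with both group means above the floor, 10.2% changed. Insm1 is also on the list of proneural targets and is counted there too. Of 6 macrophage markers 4 lay at or under the floor, among them Ptprc and Csf1r. Of 6 fibroblast markers 3 did, among them Lum, and of 6 endothelial markers 3, among them Cdh5. Cd68, Col1a1, Pdgfra, Pecam1, Kdr and Tek lay above it in both groups, and Tyrobp and Dcn in 1 group. Of all genes, 39.8% had a 6-array mean at or under the floor, so these counts do not tell whether such cells were present. The summed log2 level of the endothelial list was 38.2 to 38.8 in N1ICD and 33.7 to 34.6 in control arrays, with Kdr and Tek higher in N1ICD. For fibroblast markers it was 33.8 to 34.0 in N1ICD and 35.0 to 35.4 in control arrays, with Pdgfra lower in N1ICD. For macrophage markers the sums were 30.2 to 30.7 in N1ICD and 30.0 to 30.4 in control arrays, with Lyz2 higher in N1ICD (log2 difference 0.52 ± 0.12 SE, limma adjusted p = 0.0351) at levels under the floor in both groups. Their part in the falls of Atoh8 and Neurod4 was not tested. In a bulk sample, fewer cells with a transcript and less of it per cell cannot be told apart.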

How the data were processed

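The deposited table holds 41345 probe sets on 6 arrays, as log2 values that the authors made with RMA, per the submitters' processing notes; the version, the log base and the genome build are not given in the sources used here, and base 2, RMA's own, was taken. RMA equalizes the arrays, which hides any shift of total RNA, and compresses differences of dim probe sets. The platform annotation gave 23521 probe sets 1 symbol and 1814 several. The brightest single-symbol probe set per gene left 22180 genes.

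N1ICD minus control was fitted in R 4.3.3 with lmFit and eBayes of limma 3.58.1. Tests are two-sided, with Benjamini-Hochberg adjustment across the 22180 genes and 0.05 as the threshold. Each ± is the SE of that fit for a difference and the SD for a mean. Precision is limited by the 3 arrays per group. Figures used matplotlib 3.10.9.

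Members and gene lists were chosen with earlier results of these data known. Named are all members, up to 4 changed genes of each list by size, the nearest patterns and genes that complete small counts, the last chosen after their values were seen. Alternatives were 3 normalizations (cyclic loess added after the data were seen), 2 filters on dim genes, the mean over probe sets, all probe sets, an intensity trend with robust eBayes, array weights, a replicate block and leaving out each array.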

Additional observations from a re-analysis of the deposited data

How the results depend on the processing

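Atoh8 and Neurod4 kept their calls in all 16 alternatives, with log2 differences of -1.62 to -1.48 and -1.18 to -0.92 (highest limma adjusted p 0.00162 and 0.0307). Of the other members, none was called in any alternative that kept it (lowest adjusted p 0.104, for Neurod6). The filters on dim genes left 8 and 3 members. Differences near 0 changed sign: Atoh1 was -0.029 after quantile normalization, -0.044 with equal medians and -0.018 after cyclic loess, and Neurog2 was 0.066 with array weights and 0.0090 after cyclic loess. With 1 array left out, Atoh1 lay between -0.16 and 0.17, Neurog2 between -0.13 and 0.18, Neurod2 between -0.23 and 0.041, and Nhlh2 between -0.14 and 0.11. With the floor at the 99th percentile of the receptor genes, 8 members were near it. Over all genes, 548 rose and 257 fell with all probe sets tested, 1289 fell with the genes below the median level left out and 1227 fell with the intensity trend, against 848 and 726. With equal array medians 730 rose and 948 fell, so which direction was the more frequent depended on the processing. Leaving out 1 array gave 548 to 709 rises and 275 to 585 falls. Falls numbered 426, 339 and 308 without control replicates 1 to 3 and 473 and 275 without N1ICD replicates 1 and 2, and rises 557 and 548 without replicate 2 of control and of N1ICD. Of the other class II factors, 1 fell with all probe sets, with those dim genes left out (where 0 rose), with the replicate block and without any 1 array (1 to 1). The arrays share replicate numbers, and the labels do not say what a number marks. Deviations from the group means correlated across genes at 0.23, 0.01 and 0.20 for numbers 1, 2 and 3, and at -0.20 and -0.23 for number 1 against 3. The 3 deviations of a group sum to 0, so these values are not independent. A value near 0 for number 2 therefore does not show that its arrays are unpaired. Whether a shared number marks a pair cannot be told from these correlations. The main fit did not pair the arrays, and the replicate block did. The replicate block gave 814 rises and 704 falls and changed no call of a member (Atoh8 adjusted p = 0.00162, Neurod4 0.00467). For the probe set annotated to Neurod1 and Cerkl the block, added after the data were seen, gave -0.62 ± 0.09 SE (adjusted p = 0.0954). The cause of these shifts was not tested.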
